A study of Mus musculus with 56 samples.

Results

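The transcription factor gene Trp53, which encodes p53, and 9 genes tied to it in a feedback or target relation were examined in blood progenitors of mice. The set held Trp53, its inhibitors Mdm2 and Mdm4, and the target genes Ccng1, Bbc3, Pmaip1, Trp53inp1, Zmat3, Sesn2 and Phlda3. They were found by symbol, through the Entrez identifiers of the deposited expression table, and all 10 were present among its 24424 genes. The rule that picks them uses their names and no measured value, but the set was drawn up with earlier results of these data known.

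The p53 protein binds DNA after DNA damage, oncogene activity or other stress and switches on genes that stop the cell cycle, repair DNA or start apoptosis. Mdm2 marks p53 for degradation and is itself a p53 target, which closes a negative feedback loop, and Mdm4 binds p53 and restrains it. In blood stem and progenitor cells p53 is known for limiting the expansion of damaged or stressed cells. Most control of p53 is on the protein, so RNA levels of Trp53 do not measure p53 activity.

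RNA sequencing had been done on 2 progenitor populations sorted from bone marrow of C57BL/6 mice. Multipotent progenitors (MPP) were lineage-negative Sca+ cKit+ cells that carried CD48 and lacked CD150. The second population, granulocyte-macrophage progenitors (GMP), was sorted as lineage-negative Sca- cKit+ cells with CD34 and CD16/32 on the surface. Each population came from wild-type (WT) mice and from Tet2-/-Flt3ITD mice (T2F3), which lack the 5-methylcytosine oxidase gene Tet2 and carry an internal tandem duplication of the receptor tyrosine kinase gene Flt3. There were 4 libraries of WT MPP, with replicate numbers 1, 3, 4 and 5, 3 of T2F3 MPP, 5 of WT GMP and 3 of T2F3 GMP. The T2F3 animals carried both lesions, so the effect of either lesion alone cannot be told apart. The labels state that the animals were treated but leave the treatment to a manuscript. That treatment, age, sex, how the alleles were made or induced, and the number of animals behind each library are not given in the sources used here. The p-values therefore measure the spread between these libraries, which may be partly technical.

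The values are regularized log2 expression values: a shrunken log2 level per gene, in which differences of low genes are understated. They are not scaled by gene length, so levels are compared between groups and not between genes, and the read depth of the libraries is unknown. All differences below are on this log2 scale, where 1 is a doubling. A gene was tested if its mean over the 15 libraries was at least 4, which kept 12133 genes, and was called at an adjusted p below 0.05 (limma, Benjamini-Hochberg over all tested genes, two-sided). Of the 10 genes, 9 passed this filter. Phlda3, with a mean of 3.31, did not, and its values come from a fit without the filter. In sorted bulk samples, fewer cells of a type and less RNA per cell cannot be told apart.

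The libraries were checked against their gates and for other cells. Fcgr3, which encodes CD16, was at 11.01 ± 0.34 in WT GMP (SD, n = 5) and 8.89 ± 0.22 in WT MPP (SD, n = 4), and Slamf1, which encodes CD150, stood between 1.89 and 3.10 in every library. Ly6a, which encodes Sca-1, was at 7.70 ± 0.15 in WT MPP (SD, n = 4) and at 7.12 ± 0.14 in WT GMP (SD, n = 5), so its RNA was not absent from cells sorted as Sca-. Of the 5 genes of the GMP gate (Kit, Ly6a, Cd34, Fcgr3 and Fcgr2b), 2 rose and 3 fell from WT MPP to WT GMP. In that comparison 48.6% of all tested genes were called. The summed log2 level of these 5 genes was 13.50 to 13.64 in WT MPP and 13.11 to 13.23 in WT GMP. The sum did not rise, but Ly6a is meant to be low in the GMP gate and Kit is required by both gates. It therefore does not check the gate. Gate genes also differed between the genotypes. In T2F3 MPP, Kit fell (-0.92, adjusted p = 0.000163), while Cd48 (1.53, adjusted p = 6.7e-06), Fcgr2b (0.78, adjusted p = 7.35e-05) and Ly6a (0.63, adjusted p = 0.00077) rose, and in T2F3 GMP Cd48 (0.69, adjusted p = 0.01) and Ly6a (0.49, adjusted p = 0.00655) rose. Tet2 read between 9.67 and 10.30 in all 15 libraries. Flt3 was 1.28 higher in T2F3 GMP (adjusted p = 8.23e-07) and differed by -0.06 in T2F3 MPP (adjusted p = 0.685). A gene-level value checks neither the deletion of part of a gene nor a duplication within it. The summed log2 level of 7 erythroid markers was 9.86 to 10.37 in WT MPP, 7.36 to 7.52 in T2F3 MPP, 8.51 to 9.59 in WT GMP and 7.31 to 7.45 in T2F3 GMP, with Hba-a1 at or below 0 throughout. All 6 tested erythroid markers fell in both T2F3 populations. Summed dendritic cell markers were 12.19 to 13.12 in WT MPP, 15.02 to 15.89 in T2F3 MPP, 11.55 to 11.86 in WT GMP and 14.61 to 14.81 in T2F3 GMP, and 6 of 7 rose in both T2F3 populations. Summed B cell markers were 8.77 to 9.25 in WT MPP and 8.25 to 8.49 in T2F3 MPP. In GMP they were 8.48 to 9.03 in WT and 8.31 to 8.65 in T2F3. Of the 4 tested, 3 fell in both T2F3 populations. Summed late neutrophil markers were 13.21 to 14.02 in WT MPP and 13.60 to 14.72 in T2F3 MPP. In GMP they were 15.46 to 17.37 in WT and 16.50 to 18.61 in T2F3. None of these 7 was called between genotypes, and from MPP to GMP 6 rose in WT and 7 in T2F3. The part of these gate genes and markers in the results below was not tested. The 73 ribosomal protein genes had a median level of 12.62 to 12.68 in WT MPP and 13.30 to 13.35 in T2F3 MPP. In GMP, WT library 1 (14.02) and T2F3 library 2 (13.94) stood above the rest of their groups, which lay at 12.78 to 13.15 and 12.94 to 13.26.

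Promoter sequence was available from RefSeq (GRCm38.p6) for 7 of the 10 genes, in 10 windows of 300 bases that run from 250 bases before a transcription start to 50 after it. The windows were searched for the p53 consensus decamer, which reads the same on both strands and of which a full p53 response element holds a pair. Only exact matches were taken, so a site that departs from the consensus at any base was neither counted nor marked. At least 1 such decamer lay in 3 of the 10 windows, those of Trp53, Mdm2 and Ccng1, and in 8.36% of all 32851 windows. No window of the 10 held a pair separated by at most 13 bases, which 0.0731% of all windows hold. Pairs are rare in such windows, so their absence here says little, and sequence outside the windows was not searched. The 3 windows are shown because they are the members with a match, and a window of Cdkn1a, the cell cycle inhibitor p21, is shown as a p53 target window that does hold a pair. Capitals mark the decamers, each sequence is 5′ to 3′ on the gene's strand, and a match describes these letters and not a bound site.
Trp53, chr11:69580109-69580408, plus strand: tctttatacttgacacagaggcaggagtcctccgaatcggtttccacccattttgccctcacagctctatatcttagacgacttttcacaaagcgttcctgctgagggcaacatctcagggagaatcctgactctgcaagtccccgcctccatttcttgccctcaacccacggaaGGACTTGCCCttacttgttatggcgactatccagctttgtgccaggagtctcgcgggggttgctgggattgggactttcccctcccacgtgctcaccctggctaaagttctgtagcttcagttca
Mdm2, chr10:117710709-117711008, minus strand: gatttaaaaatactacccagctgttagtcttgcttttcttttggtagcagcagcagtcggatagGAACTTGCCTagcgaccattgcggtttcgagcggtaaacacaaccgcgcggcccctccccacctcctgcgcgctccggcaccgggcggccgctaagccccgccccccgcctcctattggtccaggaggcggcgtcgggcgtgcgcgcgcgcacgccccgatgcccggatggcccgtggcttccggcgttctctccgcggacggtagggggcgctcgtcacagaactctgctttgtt
Ccng1, chr11:40755237-40755536, minus strand: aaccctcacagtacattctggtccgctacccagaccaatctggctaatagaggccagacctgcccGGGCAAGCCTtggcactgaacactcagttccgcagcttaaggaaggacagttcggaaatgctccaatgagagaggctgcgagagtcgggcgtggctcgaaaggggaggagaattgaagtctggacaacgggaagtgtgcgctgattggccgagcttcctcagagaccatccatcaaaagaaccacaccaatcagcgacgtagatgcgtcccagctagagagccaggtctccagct
Cdkn1a, chr17:29090729-29091028, plus strand: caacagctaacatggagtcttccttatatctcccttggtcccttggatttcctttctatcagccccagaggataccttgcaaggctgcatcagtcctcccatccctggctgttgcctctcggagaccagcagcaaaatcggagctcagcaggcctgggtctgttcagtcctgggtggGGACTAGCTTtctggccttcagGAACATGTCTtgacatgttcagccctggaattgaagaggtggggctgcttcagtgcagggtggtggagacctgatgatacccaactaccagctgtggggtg
The decamer of Trp53 began 75 bases before the start, that of Mdm2 186 bases before it and that of Ccng1 185 bases before it. The decamers of Cdkn1a began 73 and 51 bases before the start of the window shown. A second Cdkn1a window, at another start (chr17:29093519-29093818), held no decamer. Pmaip1, Trp53inp1 and Zmat3 had no entry.

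**Figure D1:**
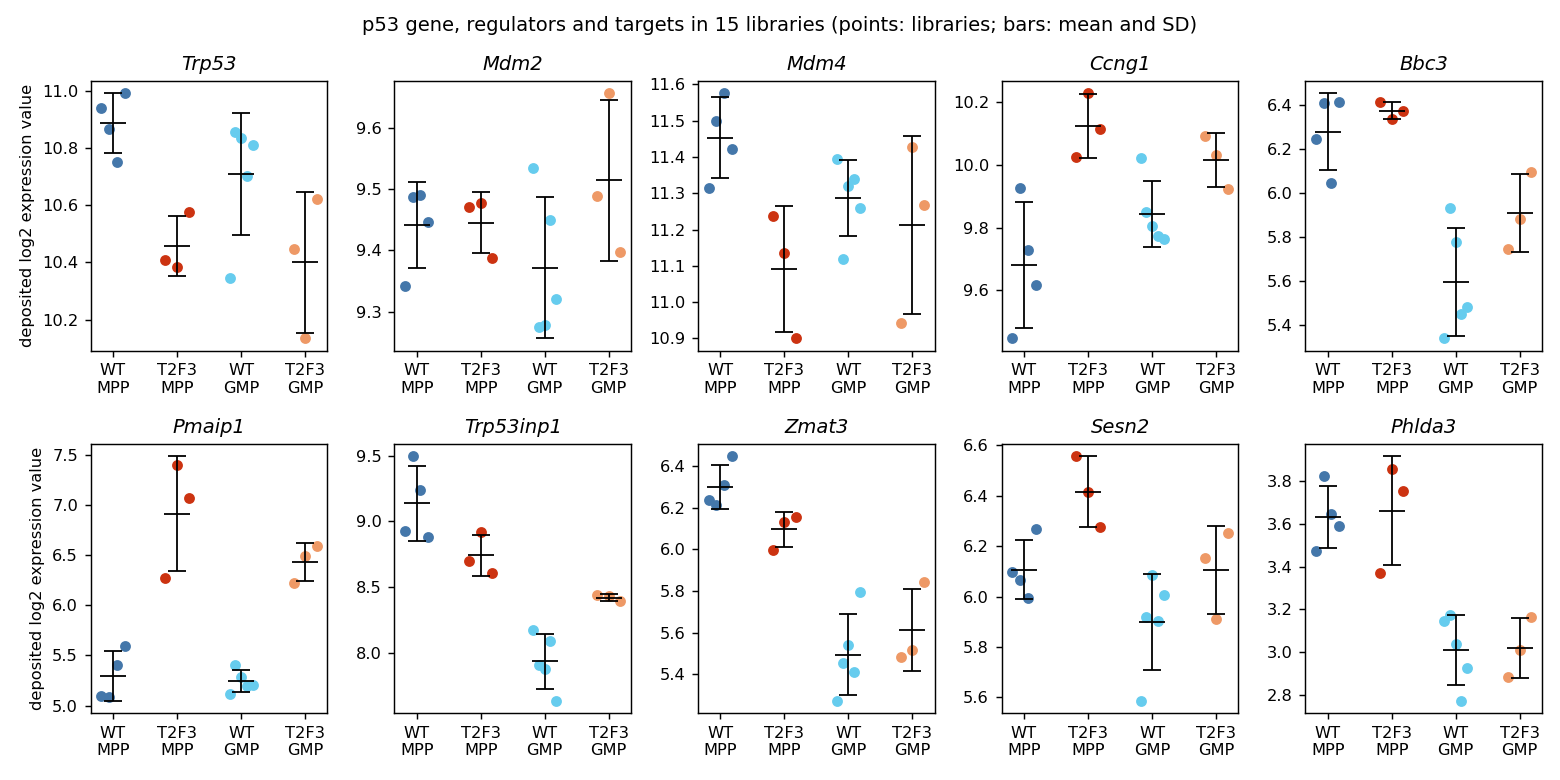
Regularized log2 expression (vertical axis, 1 panel per gene, each with its own scale) of the 10 genes in each of the 15 libraries, by group (horizontal axis), with bars for the group mean and SD. Pmaip1 in T2F3 MPP and T2F3 GMP lies at 6.22 to 7.39, above every WT library (5.08 to 5.60), while Mdm2 overlaps between all groups.

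In MPP, the gene with the largest genotype difference of the set was Pmaip1, and Trp53 itself was lower in T2F3. Of the 9 tested genes, Pmaip1 and Ccng1 rose and Trp53, Mdm4 and Trp53inp1 fell. The 5 calls stand beside 40.3% of all tested genes called in this comparison, 20.7% higher and 19.6% lower, so calls were common and their number is not particular to these genes. Libraries of T2F3 and WT did not overlap for 6 of the 9 genes, beside 54.1% of all tested genes. Of all calls, 51.3% were higher as deposited and 40.2% after centring every library on its median. The median difference was 0.0041 over the 9 genes and -0.02 over all tested genes. In GMP, Pmaip1 and Trp53inp1 passed of the 9 genes, both higher in T2F3, beside 15.3% of all tested genes (9.25% higher and 6.04% lower). With limma's array weights, which downweight libraries that vary more, 4 passed (these 2, Trp53 and Ccng1). With those weights 4103 of the 12133 tested genes passed. Pmaip1 and Trp53inp1 were also the genes without overlap in GMP, beside 17.0% of all tested genes. The median difference in GMP was 0.17 over the 9 genes and -0.02 over all tested genes.

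**Figure D2:**
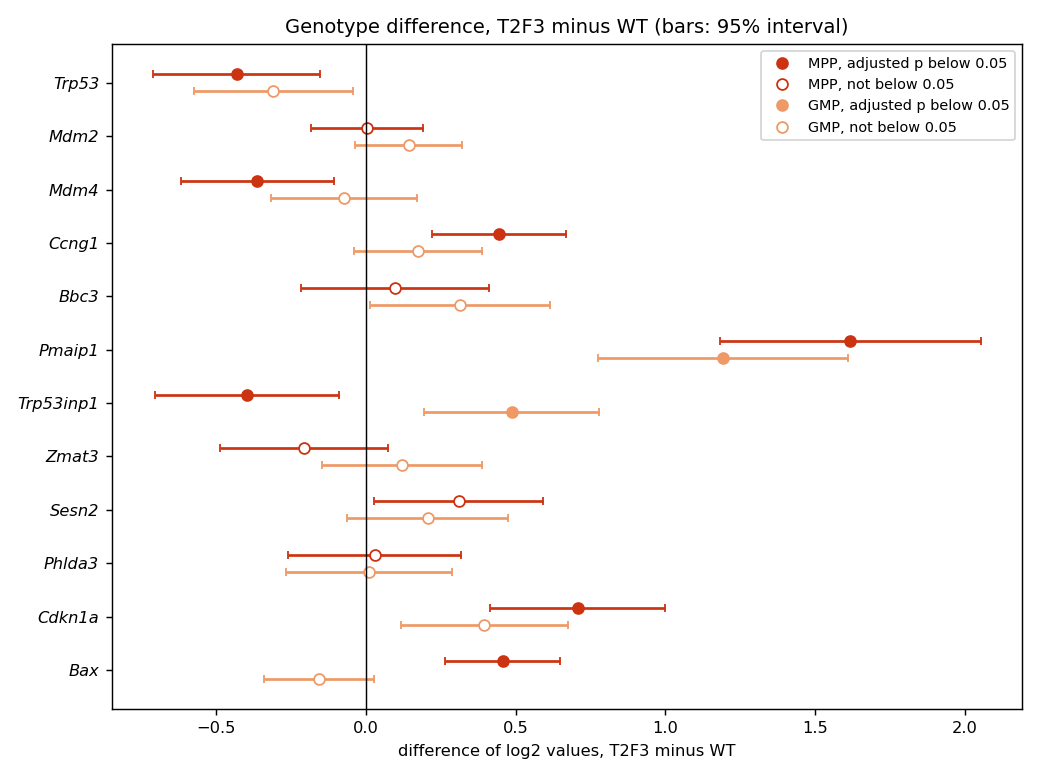
Difference T2F3 minus WT (horizontal axis, log2) of each of the 10 genes and of Cdkn1a and Bax (vertical axis) in MPP and in GMP, with 95% intervals and filled symbols for adjusted p below 0.05 (Phlda3 from the fit without a filter). The intervals of Pmaip1 lie above 0 in both populations, and those of Trp53inp1 lie on opposite sides of 0.

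Trp53 read 10.94, 10.87, 10.75 and 10.99 in WT MPP 1, 3, 4 and 5, and 10.41, 10.38 and 10.58 in T2F3 MPP 1, 2 and 3. Every T2F3 MPP library was below every WT MPP library. The difference was -0.43 ± 0.13 (SE, 95% interval -0.71 to -0.15, adjusted p = 0.0177), a level 1.35-fold lower. Without T2F3 MPP 2 the call was lost (-0.40, adjusted p = 0.0713). In GMP the WT libraries 1 to 5 read 10.34, 10.85, 10.83, 10.70 and 10.81, and the T2F3 libraries 1 to 3 read 10.45, 10.13 and 10.62. WT GMP 1 was the lowest of its group and fell within the range of the T2F3 libraries, so the groups overlapped. The difference in GMP was -0.31 ± 0.13 (SE, 95% interval -0.57 to -0.04, adjusted p = 0.109). It passed with array weights (-0.32, adjusted p = 0.0103) and without WT GMP 1 (-0.40, adjusted p = 0.00973), and without WT GMP 1 and T2F3 GMP 2 together it was -0.27 (adjusted p = 0.053). The effects in MPP and GMP differed by 0.12 ± 0.18 (SE, GMP minus MPP, adjusted p = 0.729).

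Trp53 tended to be low in libraries with a high ribosomal protein level, though not in all of them. Of its group, Trp53 was lowest in WT GMP 1 (10.34) and in T2F3 GMP 2 (10.13), the GMP libraries with the highest ribosomal protein level, and the T2F3 MPP libraries had lower Trp53 and a higher ribosomal protein level than WT MPP. WT GMP 2 went the other way, with the second highest ribosomal protein level of its group (13.15) and the highest Trp53 (10.85). With that level as a covariate, an alternative chosen after seeing the data, the Trp53 difference was -0.15 in MPP (adjusted p = 0.207) and -0.21 in GMP (adjusted p = 0.0467). In MPP the 2 genotypes do not overlap in ribosomal protein level, so that level and the genotype cannot be told apart there. Among all tested genes, those with the pattern most like Trp53 over the 15 libraries were Vars (Pearson r = 0.976), Fto (r = 0.973) and Bag6 (r = 0.971). Vars encodes valyl-tRNA synthetase, Fto an RNA demethylase and Bag6 a chaperone. These correlations describe 15 libraries that fall into 4 groups and share the library differences above.

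**Figure D3:**
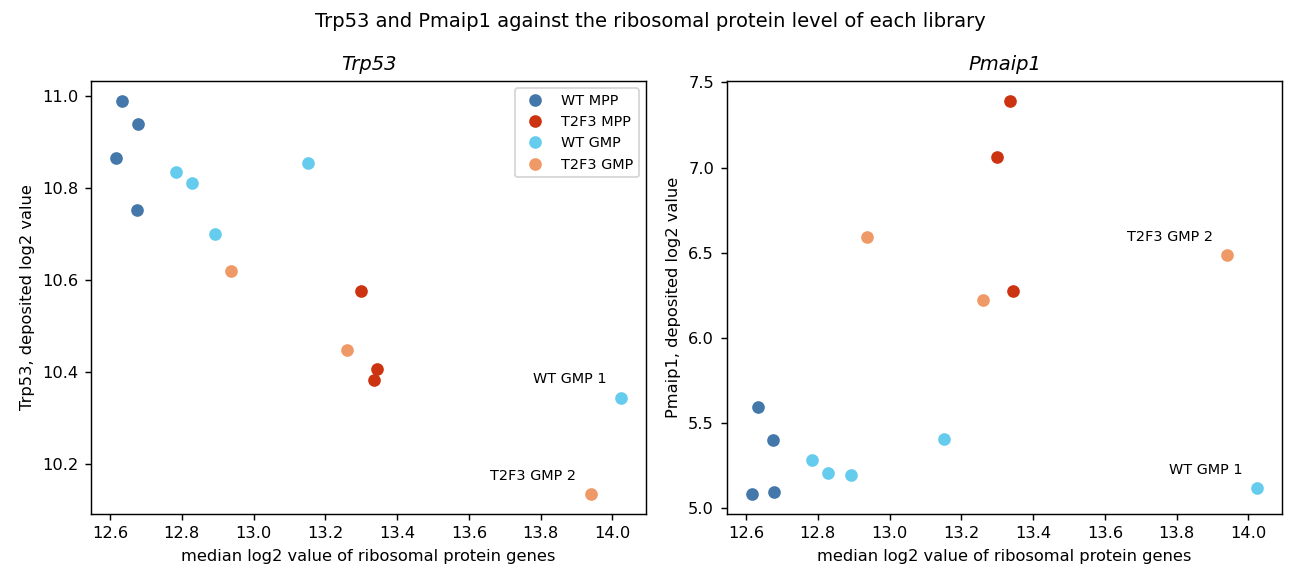
Trp53 (left panel) and Pmaip1 (right panel), each as regularized log2 on the vertical axis, against the median of 73 ribosomal protein genes (horizontal axis, regularized log2) in each of the 15 libraries, coloured by group. WT GMP 1 (14.02, 10.34) and T2F3 GMP 2 (13.94, 10.13) lie at the lower right for Trp53 and the WT MPP libraries at the upper left, while Pmaip1 in WT GMP 1 (5.12) is as low as in the other WT libraries.

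Mdm2, the E3 ubiquitin ligase that p53 induces and that degrades p53, showed close to no genotype difference in MPP. It read 9.34, 9.49, 9.49 and 9.45 in WT MPP 1, 3, 4 and 5 and 9.47, 9.48 and 9.39 in T2F3 MPP 1 to 3. The T2F3 values lay inside the WT range. The difference was 0.0041 ± 0.09 (SE, 95% interval -0.18 to 0.19, adjusted p = 0.975). In GMP, Mdm2 read 9.54, 9.28, 9.28, 9.45 and 9.32 in WT 1 to 5 and 9.49, 9.66 and 9.40 in T2F3 1 to 3. WT GMP 1 and T2F3 GMP 2, the 2 libraries with the highest ribosomal protein level, had the highest value of their groups. The difference in GMP was 0.14 ± 0.08 (SE, 95% interval -0.03 to 0.32, adjusted p = 0.27). The genes most like Mdm2 over the 15 libraries were Cd84 (r = 0.860), Zfp935 (r = 0.858) and Clk1 (r = 0.845).

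Mdm4, the p53-binding relative of Mdm2 that blocks p53 transactivation, read 11.31, 11.50, 11.58 and 11.42 in WT MPP 1, 3, 4 and 5. In T2F3 MPP 1 to 3 it read 11.24, 11.13 and 10.90. All T2F3 MPP libraries were below all WT MPP libraries. The fall was -0.36 ± 0.12 (SE, 95% interval -0.62 to -0.11, adjusted p = 0.0268). The call was lost on leaving out WT MPP 3 (adjusted p = 0.0596), WT MPP 4 (0.0688), T2F3 MPP 2 (0.0618) or T2F3 MPP 3 (0.139), with the difference between -0.44 and -0.27 over all libraries left out in turn. The GMP means of Mdm4 were 11.29 ± 0.10 for WT (SD, n = 5) against 11.21 ± 0.25 for T2F3 (SD, n = 3). That difference was -0.07 ± 0.12 (SE, 95% interval -0.32 to 0.17, adjusted p = 0.712), and it was 0.06 without T2F3 GMP 1 (adjusted p = 0.768).

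Pmaip1, which encodes the BH3-only apoptosis protein Noxa, rose in both populations. It read 5.09, 5.08, 5.40 and 5.60 in WT MPP 1, 3, 4 and 5 and 6.28, 7.39 and 7.07 in T2F3 MPP 1 to 3. All T2F3 MPP libraries were above all WT MPP libraries, and T2F3 MPP 1 was the lowest of its group. The difference was 1.62 ± 0.21 (SE, 95% interval 1.18 to 2.05, adjusted p = 2.21e-05), a 3.07-fold rise. In GMP it read 5.12, 5.41, 5.28, 5.20 and 5.21 in WT 1 to 5 and 6.22, 6.48 and 6.59 in T2F3 1 to 3, again with no overlap. The difference was 1.19 ± 0.20 (SE, 95% interval 0.77 to 1.61, adjusted p = 0.000475), a 2.28-fold rise. It was 1.13 without WT GMP 1 and T2F3 GMP 2 (adjusted p = 0.00309). Leaving out any 1 library kept both calls, with differences of 1.38 to 1.94 in MPP and 1.11 to 1.30 in GMP. The effects in MPP and GMP differed by -0.43 ± 0.29 (SE, GMP minus MPP, 95% interval -1.03 to 0.18, adjusted p = 0.42). Pmaip1 is also induced by other stress and cytokine pathways, so its level is not a p53 readout alone.

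Ccng1, which encodes cyclin G1, a target that acts back on the Mdm2 loop, rose in MPP. It read 9.45, 9.93, 9.73 and 9.62 in WT MPP 1, 3, 4 and 5 and 10.03, 10.23 and 10.11 in T2F3 MPP 1 to 3. The T2F3 libraries were all above the WT libraries, the nearest WT library being WT MPP 3. The rise was 0.44 ± 0.11 (SE, 95% interval 0.22 to 0.67, adjusted p = 0.00456), or 1.36-fold, and it kept its call without any 1 library (0.37 to 0.52). The GMP means of Ccng1 were 9.84 ± 0.11 for WT (SD, n = 5) against 10.02 ± 0.09 for T2F3 (SD, n = 3). WT GMP 1, at 10.02, lay within the T2F3 range of 9.92 to 10.09. The difference in GMP was 0.17 ± 0.10 (SE, 95% interval -0.04 to 0.39, adjusted p = 0.268) and passed with array weights (0.26, adjusted p = 0.0412), and the 2 effects differed by -0.27 ± 0.15 (SE, adjusted p = 0.317). The genes most like Ccng1 over the 15 libraries were Snap29 (r = 0.937), Snx1 (r = 0.920) and Vrk2 (r = 0.918), of which Snap29 and Snx1 act in membrane traffic and Vrk2 is a kinase.

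Trp53inp1, a p53-induced nuclear protein that acts in stress response and autophagy, moved in opposite directions in the 2 populations. It read 8.93, 9.50, 9.24 and 8.89 in WT MPP 1, 3, 4 and 5 and 8.70, 8.92 and 8.61 in T2F3 MPP 1 to 3. T2F3 MPP 2 lay above WT MPP 5, so the groups overlapped. The difference in MPP was -0.40 ± 0.14 (SE, 95% interval -0.70 to -0.09, adjusted p = 0.0395). This call was lost without WT MPP 3 (-0.28, adjusted p = 0.122), WT MPP 4 (-0.36, 0.0847), T2F3 MPP 1 (-0.38, 0.0909) or T2F3 MPP 3 (-0.33, 0.146). In GMP it read 8.17, 7.90, 7.87, 8.09 and 7.63 in WT 1 to 5 and 8.44, 8.43 and 8.39 in T2F3 1 to 3. All T2F3 GMP libraries were above all WT GMP libraries. The rise in GMP was 0.49 ± 0.14 (SE, 95% interval 0.19 to 0.78, adjusted p = 0.0254), or 1.40-fold. It was lost without WT GMP 3 (0.47, adjusted p = 0.0522), WT GMP 5 (0.41, 0.0615), T2F3 GMP 1 (0.48, 0.0692), T2F3 GMP 2 (0.48, 0.0773) or T2F3 GMP 3 (0.50, 0.054), and kept without WT GMP 1 and T2F3 GMP 2 together (0.54, adjusted p = 0.023).

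Trp53inp1 was also the 1 gene of the 9 whose genotype effect differed between GMP and MPP, beside 2.26% of all tested genes (274 genes, and 79 to 586 with 1 library left out, the lowest without T2F3 MPP 3 and the highest without T2F3 MPP 1). With array weights Pmaip1 passed as well (-0.82, adjusted p = 0.0235). The difference of effects was 0.88 ± 0.20 (SE, GMP minus MPP, 95% interval 0.46 to 1.31, adjusted p = 0.0324). Its size lay between 0.76 and 0.97 with any 1 of the 15 libraries left out. The call was lost on leaving out WT MPP 3 (adjusted p = 0.0578), WT MPP 4 (0.0686), T2F3 MPP 3 (0.113), WT GMP 2 (0.0559), T2F3 GMP 1 (0.0506), T2F3 GMP 2 (0.0578) or T2F3 GMP 3 (0.0733).

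The other target genes did not pass in either genotype comparison. Sesn2, which encodes a stress protein that restrains mTORC1, read 6.10, 6.07, 5.99 and 6.27 in WT MPP and 6.56, 6.42 and 6.28 in T2F3 MPP. The groups did not overlap, with WT MPP 5 and T2F3 MPP 3 nearly equal, and the difference was 0.31 ± 0.13 (SE, 95% interval 0.03 to 0.59, adjusted p = 0.0712). It passed with limma's array weights (adjusted p = 0.0131), with the 2 MPP groups fitted alone (0.0474) and without WT GMP 1 and T2F3 GMP 2 (0.0263). In GMP its difference was 0.21 ± 0.13 (SE, 95% interval -0.06 to 0.47, adjusted p = 0.293). Bbc3 encodes the BH3-only protein Puma, like Noxa a trigger of mitochondrial apoptosis. Its difference was 0.10 ± 0.15 in MPP (SE, 95% interval -0.22 to 0.41, adjusted p = 0.616) and 0.31 ± 0.14 in GMP (SE, 95% interval 0.01 to 0.61, adjusted p = 0.147). Zmat3, which encodes an RNA-binding zinc finger protein, differed by -0.21 ± 0.13 in MPP (SE, 95% interval -0.49 to 0.07, adjusted p = 0.217). All 3 T2F3 MPP libraries of Zmat3 (6.00 to 6.16) lay below the WT MPP libraries (6.21 to 6.45). In GMP, Zmat3 differed by 0.12 ± 0.13 (SE, 95% interval -0.15 to 0.39, adjusted p = 0.563). Phlda3, which encodes an inhibitor of Akt membrane binding, averaged 3.63 ± 0.15 over WT MPP (SD, n = 4) against 3.66 ± 0.26 over T2F3 MPP (SD, n = 3). Its GMP means were 3.01 ± 0.17 for WT (SD, n = 5) against 3.02 ± 0.14 for T2F3 (SD, n = 3), a low level at which this scale understates differences.

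From MPP to GMP within WT mice, 3 of the 9 tested genes fell and none rose, beside 48.6% of all tested genes called, 25.4% higher and 23.2% lower. Of all calls, 52.2% were higher as deposited and 42.2% after centring every library on its median. The WT MPP libraries are those of the genotype comparison, so the 2 comparisons share them. Trp53inp1 fell by 2.30-fold, from 9.14 ± 0.29 in WT MPP (SD, n = 4) to 7.93 ± 0.21 in WT GMP (SD, n = 5), a difference of -1.20 ± 0.13 (SE, adjusted p = 1.06e-06). Zmat3 fell by 1.75-fold, from 6.30 ± 0.11 to 5.49 ± 0.19 (-0.81 ± 0.12 SE, adjusted p = 2.89e-05). Bbc3 read 6.25, 6.41, 6.05 and 6.42 in WT MPP and 5.34, 5.93, 5.78, 5.45 and 5.48 in WT GMP. The groups did not overlap in these 3 genes, beside 43.0% of all tested genes, and Bbc3 fell by 1.61-fold (-0.68 ± 0.13 SE, adjusted p = 0.000404). All 3 kept the call without any 1 library. Phlda3, outside the filter, read 3.47 to 3.82 in WT MPP and 2.77 to 3.17 in WT GMP (-0.62 ± 0.12 SE, adjusted p = 0.000485 without the filter).

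The regulators and the remaining targets did not pass in the WT step. Trp53 differed by -0.18 ± 0.12 (SE, adjusted p = 0.212), Mdm2 by -0.07 ± 0.08 (SE, adjusted p = 0.475) and Mdm4 by -0.17 ± 0.11 (SE, adjusted p = 0.203). Under quantile normalization Trp53 (-0.34, adjusted p = 0.0146) and Mdm4 (-0.38, adjusted p = 0.0118) passed as lower in GMP, and with the ribosomal protein level as a covariate Mdm2 did (-0.16, adjusted p = 0.0381). Pmaip1, whose WT and T2F3 libraries did not overlap in either population, differed by -0.05 ± 0.18 between WT GMP and WT MPP (SE, 95% interval -0.43 to 0.33, adjusted p = 0.835). Ccng1 differed by 0.16 ± 0.09 (SE, adjusted p = 0.157) and passed without WT MPP 3 (0.24, adjusted p = 0.0413). Sesn2 differed by -0.21 ± 0.12 (SE, adjusted p = 0.152).

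Within T2F3 mice, Bbc3 and Zmat3 fell from MPP to GMP and no tested gene of the set rose, beside 22.2% of all tested genes called, 10.5% higher and 11.7% lower. The groups did not overlap for 4 of the 9 genes, beside 33.5% of all tested genes. Bbc3 read 6.42, 6.34 and 6.38 in T2F3 MPP and 5.75, 5.89 and 6.10 in T2F3 GMP, without overlap (-0.47 ± 0.16 SE, adjusted p = 0.0436). This call was lost without the filter on low genes (adjusted p = 0.0546) and without T2F3 MPP 1 (0.106), T2F3 MPP 2 (0.0802), T2F3 MPP 3 (0.0987), T2F3 GMP 1 (0.164) or T2F3 GMP 2 (0.0873). Zmat3 read 6.00, 6.13 and 6.16 in T2F3 MPP and 5.48, 5.52 and 5.84 in T2F3 GMP, also without overlap (-0.48 ± 0.14 SE, adjusted p = 0.0209). It was lost without T2F3 MPP 2 (adjusted p = 0.0622), T2F3 MPP 3 (0.0722), T2F3 GMP 1 (0.0878) or T2F3 GMP 2 (0.0653). With the 2 T2F3 groups fitted alone, neither passed (adjusted p = 0.061 for Bbc3 and 0.0687 for Zmat3), nor did either under quantile normalization (-0.29, adjusted p = 0.258, and -0.28, adjusted p = 0.248). Trp53inp1 differed by -0.32 ± 0.15 (SE, 95% interval -0.65 to 0.01, adjusted p = 0.164). Pmaip1 differed by -0.48 ± 0.22 (SE, adjusted p = 0.145) and passed without T2F3 MPP 1 (-0.80, adjusted p = 0.0041) and with array weights (-0.84, adjusted p = 0.000825). Sesn2 differed by -0.31 ± 0.14 (SE, adjusted p = 0.14), and Trp53, Mdm2, Mdm4 and Ccng1 by -0.11 to 0.12. Phlda3, again outside the filter, differed by -0.64 ± 0.15 (SE, adjusted p = 0.00424 without the filter) and missed the threshold with the 2 T2F3 groups alone (0.0606). The test of whether the WT and T2F3 steps differ is the same as that of the genotype effects above, and of the 9 genes Trp53inp1 passed it.

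**Figure D4:**
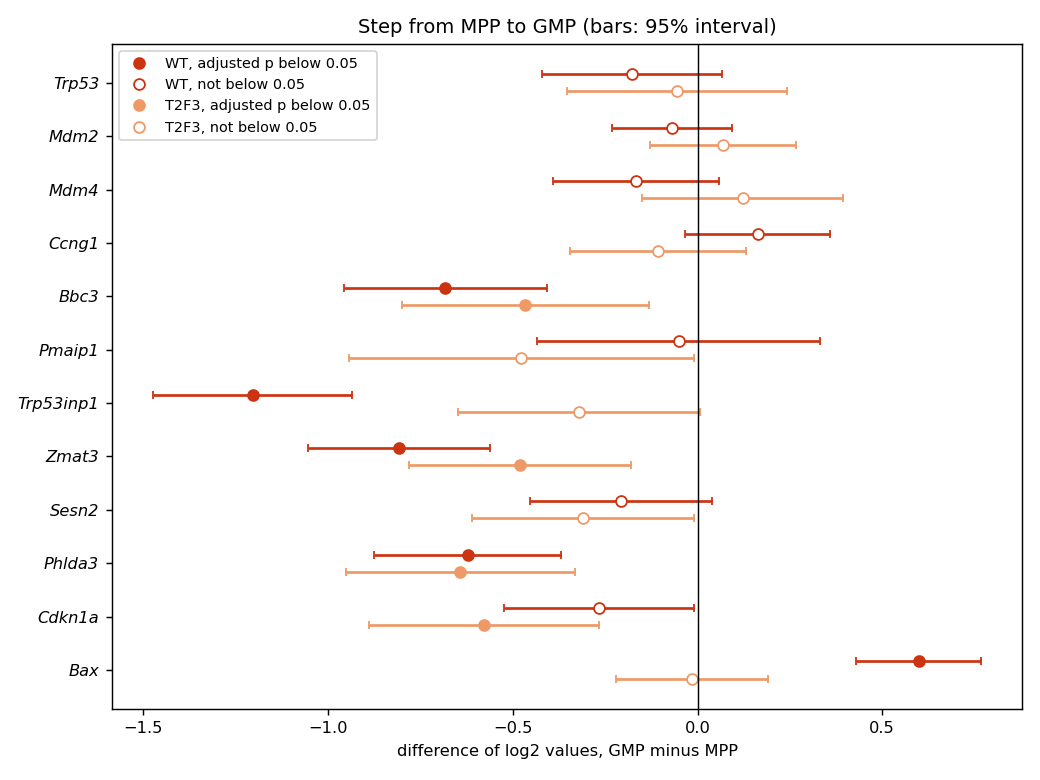
Difference GMP minus MPP (horizontal axis, log2) of each of the 10 genes and of Cdkn1a and Bax (vertical axis) within WT and within T2F3 mice, with 95% intervals and filled symbols for adjusted p below 0.05 (Phlda3 from the fit without a filter). Trp53inp1 lies at -1.20 in WT and -0.32 in T2F3, and Bax at 0.60 in WT and -0.01 in T2F3.

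Other known p53 targets were read from a list of 47 genes, of which 42 passed the filter. In MPP, 9 rose and 7 fell, beside 20.7% and 19.6% of all tested genes, with a median difference of -0.05 beside -0.02 over all tested genes. These counts are not particular to p53 targets. By role, 2 rose and 2 fell of 9 arrest and feedback genes, 3 rose and 1 fell of 10 apoptosis genes, and 1 rose and 3 fell of 7 DNA repair genes. Of 8 genes of metabolism and autophagy 2 rose, and of 8 membrane and signalling genes 1 rose and 1 fell. In GMP, 4 of the 42 rose and 1 fell, beside 9.25% and 6.04% of all tested genes, with a median difference of -0.04. The GMP count rests in part on single libraries, since 11 genes were called without WT GMP 1 and 3 without T2F3 GMP 1.

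Cdkn1a, the p53 target that arrests the cell cycle, read 6.83, 6.73, 6.54 and 6.79 in WT MPP and 7.48, 7.38 and 7.42 in T2F3 MPP. All T2F3 MPP libraries were above all WT MPP libraries, a 1.63-fold rise (0.71 ± 0.14 SE, adjusted p = 0.00112). In GMP it read 6.10, 6.56, 6.75, 6.31 and 6.56 in WT and 6.94, 6.67 and 6.94 in T2F3. WT GMP 3 overlapped T2F3 GMP 2, and the difference was 0.40 ± 0.13 (SE, 95% interval 0.12 to 0.68, adjusted p = 0.053). It passed without WT GMP 3 (0.47, adjusted p = 0.0254), without T2F3 GMP 2 (0.49, adjusted p = 0.0474) and without WT GMP 1 and T2F3 GMP 2 together (0.40, adjusted p = 0.0333). Of the 7 proliferation markers, 1 rose and 1 fell in T2F3 MPP and none was called in T2F3 GMP.

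Btg2, an antiproliferative p53 target, rose in T2F3 in both populations. It read 8.15 to 8.75 in WT MPP and 9.16 to 9.59 in T2F3 MPP (0.96 ± 0.13 SE, adjusted p = 2.78e-05). In GMP it read 7.98 to 8.26 in WT and 9.03 to 9.08 in T2F3 (0.88 ± 0.12 SE, adjusted p = 6.71e-05). Bax, the pore-forming apoptosis protein, rose in MPP from 8.31 ± 0.07 (SD, n = 4) to 8.77 ± 0.15 (SD, n = 3), a difference of 0.46 ± 0.09 (SE, adjusted p = 0.0013). Its difference in GMP was -0.16 ± 0.09 (SE, 95% interval -0.34 to 0.03, adjusted p = 0.239). Rev3l, the catalytic subunit of a translesion DNA polymerase, fell in MPP (-0.56 ± 0.11 SE, adjusted p = 0.00125). In GMP, Ddit4, an mTORC1 inhibitor, rose by 0.90 ± 0.17 (SE, adjusted p = 0.00137). Tob1, an antiproliferative relative of Btg2, rose by 0.66 ± 0.14 (SE, adjusted p = 0.00374), and Rrm2b, a subunit of ribonucleotide reductase, by 0.36 ± 0.10 (SE, adjusted p = 0.0287). The gene that fell in GMP was Pidd1, named after its value was seen (-0.37, adjusted p = 0.0392). Rrm2b and Pidd1 differed in the same direction in MPP. Rrm2b read 7.31 to 7.63 in WT MPP and 7.84 to 7.93 in T2F3 MPP. Pidd1 read 8.55 to 9.03 in WT MPP and 8.05 to 8.31 in T2F3 MPP, a difference of -0.58, the lowest of the 42 genes there. Neither overlapped in MPP, beside 54.1% of all tested genes.

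**Figure D5:**
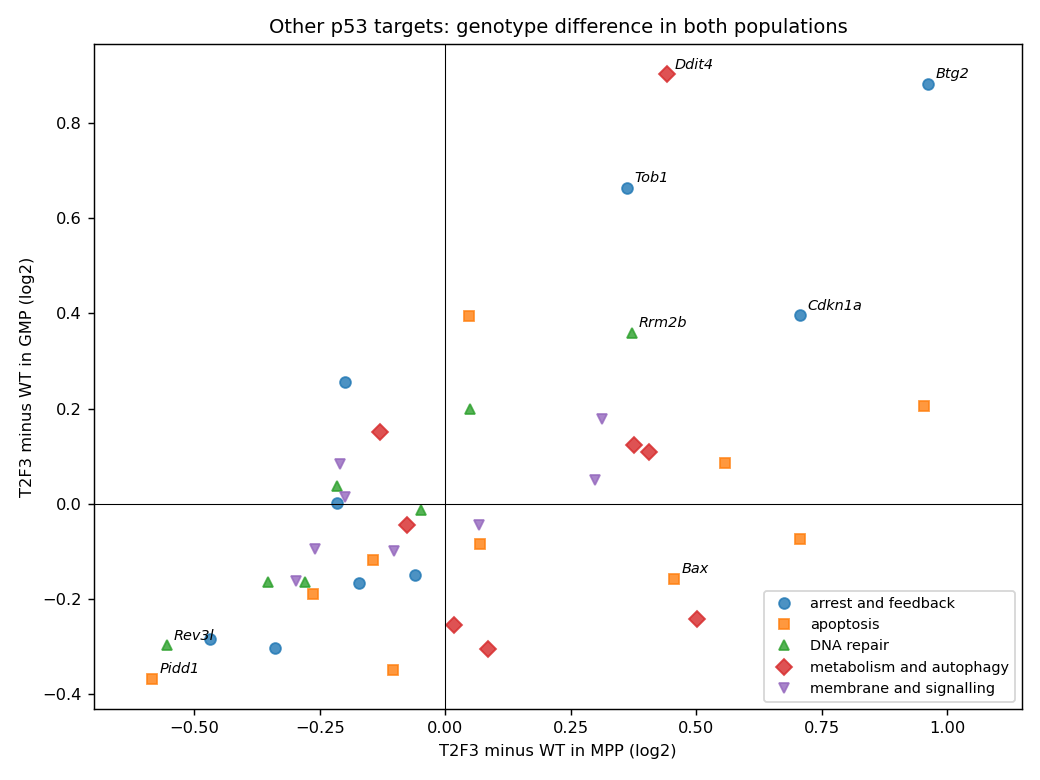
Difference T2F3 minus WT in GMP (vertical axis, log2) against that in MPP (horizontal axis, log2) for the 42 other tested p53 targets, 1 point per gene, with colour and shape by role and names for the genes given in the text. Btg2 lies at the upper right (0.96 in MPP and 0.88 in GMP), Pidd1 at the lower left, and Bax is higher in MPP (0.46) and below 0 in GMP (-0.16).

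Genes that act on p53 were read from a list of 22, of which 21 passed the filter. In MPP, 3 rose and 8 fell, beside 20.7% and 19.6% of all tested genes, with a median difference of -0.23 beside -0.02 over all tested genes. With the ribosomal protein level as a covariate 3 were called, and leaving out 1 library gave between 3 and 8 calls: 3 without T2F3 MPP 2, 3 without T2F3 MPP 3 (none of them a rise), 5 without WT MPP 3 and 7 without WT MPP 4. Over all tested genes, 4889 were called in MPP, 3725 with the covariate and 2859 to 4522 with 1 library left out. Ppp1r13b, an apoptosis-stimulating p53 partner, fell by -0.72 ± 0.12 (SE, adjusted p = 0.000365), and its inhibitory relative Ppp1r13l fell by -0.50 ± 0.15 (SE, adjusted p = 0.014). The coactivator and acetyltransferase gene Crebbp fell by -0.58 ± 0.13 (SE, adjusted p = 0.00302). Rchy1, a ubiquitin ligase for p53, rose in MPP (0.42 ± 0.12 SE, adjusted p = 0.0144) and was the 1 regulator of 21 called in GMP (0.45 ± 0.12 SE, adjusted p = 0.0151), beside 15.3% of all tested genes. Leaving out WT GMP 1 gave 8 calls in GMP, leaving out T2F3 GMP 3 gave 2, and leaving out T2F3 GMP 2 gave 0 (limma, with 2 at an unadjusted p below 0.05). Over all tested genes, 1855 were called in GMP, 3759 without WT GMP 1 and 1174 without T2F3 GMP 2. With array weights 10 regulators were called (3 higher and 7 lower), beside 4103 of all tested genes. With replicate number as a block, or the GMP groups fitted alone, 0 were called, beside 1302 and 1180 of all tested genes. Rpl5 and Rpl11, ribosomal proteins that bind Mdm2, were the other risers in MPP (0.81, adjusted p = 0.034, and 0.68, adjusted p = 0.0147), and both belong to the ribosomal protein genes whose level differed between libraries.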

How the data were processed

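Per the labels' protocols, the mRNA libraries were stranded. A single table, deposited by the authors, gives regularized log2 values of 24424 genes, by Entrez ID, in 15 libraries. The submitters' processing notes name STAR, DESeq2, Bowtie, HOMER and the build mm9, without versions or roles. Counts and depth are not in this table, so no count model was used, and 41 further samples were not used here. Symbols were matched for 24345 genes. Group means were fitted with limma 3.58.1 in R 4.3.3 (eBayes with trend and robust) on all 15 libraries for genes with a mean of at least 4. Adjusted p is Benjamini-Hochberg over 12133 genes, and the fit was tested on simulated data. No 2 libraries held identical values.

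The 10 genes and all lists were chosen with earlier results of these data known. From the other p53 targets and from the regulators, up to 4 genes of smallest p past the threshold in each genotype comparison were named, plus Cdkn1a and Bax. The 3 genes most like Trp53, Mdm2 and Ccng1 were taken by Pearson correlation, leaving out predicted genes and pseudogenes. Alternatives were other filters, offsets, scalings, weights, sample sets and replicate blocks, by number or by genotype and number. Summaries and plots were made with pandas 2.3.3, NumPy 2.4.6 and Matplotlib 3.10.9 in Python 3.11.15.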

Additional observations from a re-analysis of the deposited data

Results flagged for a closer look

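Trp53inp1 was singled out because its genotype effect differed between the populations. The difference of effects (GMP minus MPP) was 0.88 (limma, adjusted p = 0.0324), with a fall in T2F3 MPP and a rise in T2F3 GMP.

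Bax was singled out for the same reason, with a difference of effects of -0.61 (limma, adjusted p = 0.0194). It rose in T2F3 MPP and did not pass in T2F3 GMP. The call was lost without WT MPP 3, T2F3 MPP 2, T2F3 MPP 3 or T2F3 GMP 3 (adjusted p = 0.0501 to 0.0817).

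In no group of 4 or 5 libraries did the highest or lowest library lie beyond Dixon's limit, over 24 groups of 12 genes. Only WT MPP and WT GMP are of that size. The T2F3 groups, with 3 libraries each, were not examined in this way. Chance alone would mark about 1 in 20.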

How the results depend on the processing

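The 10 genes were recomputed 565 times under other settings, and 517 kept their direction and side of the threshold, 14 newly passed, 10 no longer passed and 24 changed sign. No value that changed sign had been called. With 15 libraries and values without counts, small differences of low genes are the least certain.

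The number of the 9 tested genes called moved as follows. In MPP it was 5 and became 3 with the replicate block. In GMP it was 2 and became 1 with a minimum mean of 6, 4 with array weights, 1 with the replicate block and 4 with the ribosomal protein covariate, chosen after seeing the data. With array weights it went from 1 to 2 for the difference of effects. In the WT step it was 3, and became 1 with a minimum mean of 6 and 5 with quantile normalization. In the T2F3 step it was 2, and became 0 with a minimum mean of 6, with quantile normalization and with the groups alone. In that order, 1, 1 and 3 genes had an unadjusted limma p below 0.05. A minimum mean of 6 left 6 of the 9 genes tested. It removed Bbc3 (mean 5.998), Zmat3 (5.854) and Pmaip1 (5.828), which were among the called genes. The lower counts under that filter therefore reflect their removal and test none of their calls. Leaving out 1 library gave 3 to 5, 1 to 3, 0 to 1, 3 to 4 and 0 to 2 in these comparisons.

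Replicate numbers were not shown to pair the samples. Between genotypes, which cannot share an animal, correlations of deviations of same-numbered libraries ran from -0.33 to 0.52 in GMP. Between MPP and GMP within a genotype, all were positive. They were 0.0595 to 0.46 in WT (3 of 4 pairs above 0.1) and 0.055 to 0.30 in T2F3 (2 of 3). These libraries may therefore share animals, while the main fit treats them as independent. With the block by genotype and number, all 60 recomputed results kept their direction and side of the threshold. With the replicate block by number alone, Trp53 in MPP was -0.40 (adjusted p = 0.0654), Mdm4 in MPP -0.35 (0.105) and Trp53inp1 in GMP 0.43 (0.0593). With the ribosomal covariate Sesn2 passed in MPP (0.54, 0.00371), GMP (0.29, 0.0455) and the T2F3 step (-0.29, 0.0471).

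These values changed sign. In MPP, Mdm2 was -0.0543 centred, -0.0132 under quantile normalization, -0.0085 with array weights and -0.13 with the ribosomal covariate, Bbc3 was -0.0086 with the replicate block, and Phlda3 was -0.0291 centred, -0.0848 with the block and -0.025 with the covariate. In GMP, Zmat3 was -0.0211 and Phlda3 -0.031 under quantile normalization, and Phlda3 was -0.063 with the block and -0.0099 with the covariate. For the difference of effects, Trp53 was -0.0544 with the covariate and Phlda3 was 0.0354 centred, 0.0218 with the block, 0.0181 without WT GMP 1 and T2F3 GMP 2, and 0.0151 with the covariate. In the WT step, Trp53 was 0.0211 with the covariate, and Pmaip1 was 0.29 and Sesn2 0.0706 under quantile normalization. In the T2F3 step, without WT GMP 1 and T2F3 GMP 2, Trp53 was 0.0778 and Mdm2 -0.0025, and Mdm4 was -0.0159 under quantile normalization and -0.0026 with array weights. The cause was not tested. With 1 library left out, signs changed in the ranges -0.0295 to 0.033 (Mdm2, MPP), -0.0693 to 0.174 (Phlda3, MPP), -0.18 to 0.0612 (Mdm4, GMP), -0.0631 to 0.0785 (Phlda3, GMP), -0.164 to 0.079 (Phlda3, difference of effects), -0.122 to 0.0493 (Pmaip1, WT step), -0.165 to 0.0778 (Trp53, T2F3 step), -0.0025 to 0.13 (Mdm2, T2F3 step) and -0.10 to 0.0436 (Bax, T2F3 step).

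Counts over all tested genes moved from 4889 in MPP to 7795 with array weights 2732 with the block, 2859 on leaving out T2F3 MPP 2 and 2892 on leaving out T2F3 MPP 3, and from 1855 in GMP to 4103 with array weights, 1180 with the groups alone, 2896 with the covariate, 3759 on leaving out WT GMP 1 and 1174 on leaving out T2F3 GMP 2. The difference of effects moved from 274 to 436 without a filter, 140 with a minimum mean of 6, 1494 with array weights, 1204 without WT GMP 1 and T2F3 GMP 2, 1017 with the covariate, and 79 to 586 with 1 library left out. The T2F3 step moved from 2690 to 4389 with array weights and 4259 with the covariate. Among other p53 targets, MPP calls moved from 16 to 26 with array weights and 10 with the block, and GMP calls from 5 to 12 with array weights, 9 with the covariate, and 3 with the block or the groups alone. Regulators in MPP moved from 11 to 2 with the block and 3 with the covariate.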

Other observations

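Bax, Ddit4 and Tob1 also differed between the populations of WT mice. Bax rose from MPP to GMP (0.60 ± 0.08 SE, limma, adjusted p = 1.27e-05), while Ddit4 fell by 1.05 on the log2 scale (adjusted p = 3.42e-05) and Tob1 fell by 0.65 (adjusted p = 0.000576). In T2F3 mice Bax differed by -0.01 ± 0.10 (SE, adjusted p = 0.945), and Cdkn1a fell from MPP to GMP (-0.58 ± 0.15 SE, adjusted p = 0.00865). Of the 42 other p53 targets tested, 13 rose and 10 fell in the WT step, beside 48.6% of all tested genes called, and 9 rose and 6 fell in the T2F3 step, beside 22.2%. The T2F3 count of 15 became 9 on leaving out T2F3 MPP 2 and 9 on leaving out T2F3 GMP 1. Over all tested genes the T2F3 step gave 2690 calls, and 2077 to 2611 with 1 library left out.

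Genes of the p53 family and of the upstream tumour suppressor locus were near the bottom of the scale. Trp73 was listed at 0 in all libraries, Trp63 stood between -1.75 and -1.52, and Cdkn2a between -1.49 and -1.36. None of the 3 was tested.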
